A study of Homo sapiens with 4 samples.

Results

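The 10 genes described here, ATF4, ATF5, DDIT3, ASNS, CHAC1, TRIB3, PSAT1, PHGDH, PSPH and SESN2, belong to the amino acid response controlled by the transcription factor ATF4. They were taken by symbol from the 27011 genes of the deposited count table, and all 10 were found there. RNA-Seq libraries of untreated WT cells and of Helz-null cells, in 2 biological replicates each, were compared, so that each comparison rests on 4 libraries. HEK293T is a human embryonic kidney cell line that expresses the large T antigen of SV40. Cas9 editing of HEK293T gave the Helz-null line, which carries a deletion in helz that shifts the reading frame. HELZ is a putative RNA helicase that binds the CCR4-NOT deadenylase complex. Since a single edited line was compared with its parent, differences that arose during the isolation of the line cannot be told apart from the loss of HELZ.

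ATF4 is controlled mainly at translation. When amino acids run short, uncharged tRNAs activate the kinase GCN2 (gene EIF2AK4), which phosphorylates the initiation factor eIF2. General translation then falls, while upstream open reading frames in the ATF4 mRNA allow more ATF4 protein to be made. ATF4 dimerizes with C/EBP proteins and binds C/EBP-ATF response elements. It thereby switches on genes for amino acid synthesis, uptake and tRNA charging, and also genes such as TRIB3 and DDIT3 that restrain the response or promote cell death. RNA-Seq measures none of the translational steps, only mRNA abundance.

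The core of a C/EBP-ATF response element was searched as TGATGNAA on both strands in windows of 300 bases, from 250 before to 50 after each transcription start of RefSeq (GRCh38.p14). Of the 10 genes, 9 had a window and PSPH had none. The letters were found for 2 of the 9, ASNS and CHAC1. Of all 35116 windows 3.62% held them, as did 2.39% of the 8923 tested genes with a window. Among the tested genes the share was 2.91% of those that fell, 2.46% of those that rose and 2.26% of those that were not called. Of the related genes introduced further on, 17 tested genes held them, of which 9 fell, 1 rose and 7 were not called. Of all 213 tested genes that held them, 41 fell, 30 rose and 142 were not called. Over all tested genes, with or without the letters, 15.5% fell and 13.9% rose. A link between the letters and the calls was not tested. Of the lists, that of tRNA charging and export had the highest share with the letters, 5 of 8 genes with a window (62.5%). The windows around the motif are shown for the 2 members and, as examples, for 6 related genes that fell, rose or were not called. They were placed on hg19 (GRCh37) by exact match and are written 5′ to 3′ in the direction of the gene, with the motif on either strand in capitals.
ASNS, chr7:97501770-97501799, minus strand, lower in Helz-null cells: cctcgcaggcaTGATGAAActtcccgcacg
CHAC1, chr15:41245449-41245478, plus strand, lower: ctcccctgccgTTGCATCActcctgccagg
CEBPG, chr19:33864966-33864995, plus strand, lower: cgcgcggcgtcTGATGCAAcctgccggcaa
MTHFD1L, chr6:151187482-151187511, plus strand, lower: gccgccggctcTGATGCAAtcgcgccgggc
SLC1A5, chr19:47288150-47288179, minus strand, lower: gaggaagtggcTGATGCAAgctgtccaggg
AARS, chr16:70323578-70323607, minus strand, lower: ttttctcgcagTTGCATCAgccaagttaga
ATF3, chr1:212738547-212738576, plus strand, higher: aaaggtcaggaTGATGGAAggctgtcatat
TARS, chr5:33441062-33441091, plus strand, not called: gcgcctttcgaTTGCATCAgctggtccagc
A match is a description of the letters and not evidence that a factor is bound there.

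Library totals ranged from 41745401 to 70464140 counts. The normalized levels (CPM, the counts of a gene per 1e+06 counts of the library, scaled by TMM) of HELZ fell from 99.8 and 103.9 in WT cells to 36.98 and 37.9 in Helz-null cells, so the edited gene was lower under its label in each replicate (log2FC -1.44, SE 0.042, adjusted p = 2.13e-27 from edgeR). Of 8 markers of the HEK293 line, all had counts in at least 1 library, although PAX8 did not exceed 4 counts in any. Of the 5 tested, VIM (log2FC -0.14), KRT8 (-0.98) and KRT18 (-0.16) fell and NEFM rose by 0.89, and the untested LHX1 had a log2FC of 0.98 among genes kept by filterByExpr. Without TMM scaling, as CPM of the library totals, the summed level of the 8 was 1468 to 1470 in WT and 1571 to 1592 in Helz-null cells. Of 8 markers of other cell types, HBB and AFP were at 0 in every library. On the same scale the sum of the 8 was 16.3 to 17.8 CPM in WT and 16.5 to 18.2 CPM in Helz-null cells, nearly all of it from the fibroblast collagen genes COL1A1 and COL3A1. The sum of the remaining 6 was 0.0615 to 0.142 CPM in WT and 0.0426 to 0.0719 CPM in Helz-null cells. In bulk RNA, fewer cells that express a gene and less RNA per cell cannot be told apart.

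Of the 10 ATF4 response genes, 5 fell in Helz-null cells, none rose and 5 were not called. The genes that fell were ATF4 itself, asparagine synthetase (ASNS), the serine pathway enzyme PSAT1, the glutathione-degrading enzyme CHAC1 and the mTORC1 inhibitor SESN2. A gene was called at an adjusted p under 0.005 from edgeR's quasi-likelihood test over all 10978 genes of the authors' comparison, of which 15.5% fell and 13.9% rose. The median log2FC of the 10 genes was -0.15, against -0.00091 for all genes tested. At an unadjusted p under 0.05, 8 genes were lower and 0 were higher, against 25.8% lower and 25.1% higher of all tested genes. These 8 were all the members with a log2FC below 0, as 50.2% of all tested genes had. DESeq2 called 5 lower and 0 higher, against 11.7% lower and 10% higher of all tested genes. For all 10 genes the 2 WT and the 2 Helz-null values did not overlap, which was also the case for 70.6% of all tested genes. The decreases were modest. The largest brought CHAC1 to 64.8% and ASNS to 72.3% of the WT level, and against a fold change of at least 1.2 only ASNS passed (adjusted p = 6.10e-06 from edgeR).

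**Figure D1:**
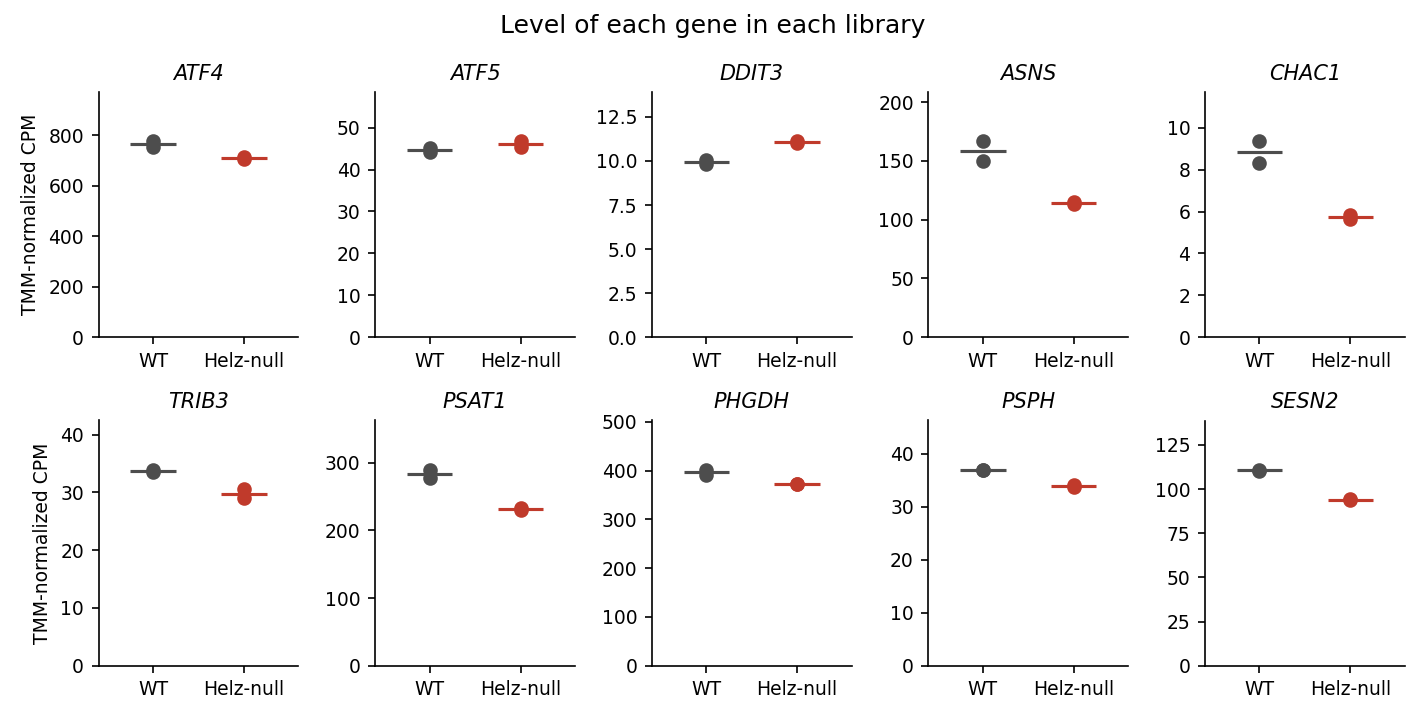
TMM-normalized CPM of each of the 10 genes (y axis, from 0, a separate scale per gene) in the 2 WT libraries (grey points) and the 2 Helz-null libraries (red points), with horizontal lines at the group means. ASNS lies at 150.3 and 166.9 CPM in WT against 113.4 and 115.2 CPM in Helz-null cells, whereas ATF5 values lie close together, at 44.1 and 45.02 against 45.3 and 46.8 CPM.

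Of the 3 transcription factors of the group, ATF4 was called and ATF5 and DDIT3 were not, and differences between them were not tested. ATF4 (chromosome 22, 39915700 to 39918688, plus strand) is the regulator of the response and was the most abundant of the 10 mRNAs. It had 777.5 and 753.6 CPM in WT cells and 707.8 and 714.7 CPM in Helz-null cells. Both Helz-null values lay below both WT values, and the mRNA fell to 92.9% of WT (log2FC -0.11, SE 0.027, adjusted p = 0.0014 from edgeR). This small decrease was not called without Helz-null replicate 1 (adjusted p = 0.054), without Helz-null replicate 2 (adjusted p = 0.028) or when libraries were scaled by their total only (log2FC -0.073, adjusted p = 0.023). ATF5 (chromosome 19, 50431959 to 50437192, plus strand), a paralog that is also controlled by upstream open reading frames, had 45.02 and 44.1 CPM in WT and 46.8 and 45.3 CPM in Helz-null cells. The groups lay 0.0078 apart on the log2 scale at their nearest libraries, less than the 0.048 between the Helz-null replicates, and ATF5 was not called (log2FC 0.044, 95% interval -0.054 to 0.14, adjusted p = 0.49). DDIT3 (chromosome 12, 57910371 to 57915520, minus strand) encodes CHOP, a target of ATF4 linked to cell death. Its values were 10.03 and 9.83 CPM in WT and 11.13 and 11.00 CPM in Helz-null cells. DDIT3 was thus the member with the highest log2FC, 0.15, from 403 to 767 counts per library, and it was not called (SE 0.092, 95% interval -0.033 to 0.34, adjusted p = 0.18). Both of these genes overlap others on the opposite strand, ATF5 with NUP62 and IL4I1, and DDIT3 with MARS1 and MBD6. ATF5 also shares 5234 bases with the protein-coding ENSG00000269179 on the opposite strand. DDIT3 shares 2769 bases with the protein-coding ENSG00000285133 on its own strand. The use of strand in counting is not stated, so part of their counts may come from these neighbours.

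Among the enzymes of amino acid synthesis, ASNS and PSAT1 fell, whereas PHGDH and PSPH were not called. ASNS (chromosome 7, 97480989 to 97501854, minus strand) makes asparagine from aspartate and is a classical ATF4 target. It had 150.3 and 166.9 CPM in WT cells and 113.4 and 115.2 CPM in Helz-null cells. All Helz-null values lay below the WT values although the WT replicates themselves differed by 0.15 on the log2 scale. The log2FC was -0.47 (SE 0.037, adjusted p = 1.33e-13 from edgeR), and it ranged from -0.55 to -0.39 with single libraries left out. ASNS shares 20855 bases with the long non-coding RNA gene ENSG00000284707 on its own strand, so part of its counts may come from that gene.

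PHGDH, PSAT1 and PSPH catalyse the consecutive steps from a glycolytic intermediate to serine. PSAT1 (chromosome 9, 80912041 to 80945009, plus strand), the transaminase in the middle of the pathway, had 277.0 and 290.0 CPM in WT and 233.6 and 230.6 CPM in Helz-null cells. Its mRNA fell to 81.9% of WT (log2FC -0.29, SE 0.030, adjusted p = 2.34e-10). PHGDH (chromosome 1, 120191034 to 120286841, plus strand), the first enzyme, had 402.2 and 391.99 CPM in WT and 373.3 and 373.1 CPM in Helz-null cells. PSPH (chromosome 7, 56078744 to 56119297, minus strand), the last enzyme, had 37.03 and 36.98 CPM in WT and 33.7 and 34.1 CPM in Helz-null cells. The groups were separate for both enzymes, but neither was called. The log2FC was -0.090 for PHGDH (95% interval -0.15 to -0.033, adjusted p = 0.0087) and -0.13 for PSPH (95% interval -0.23 to -0.019, adjusted p = 0.051). PHGDH passed the threshold when all genes with at least 1 count were tested (log2FC -0.093, adjusted p = 0.0049 from edgeR). With libraries scaled by their total only, its log2FC was -0.057 (adjusted p = 0.096 from edgeR). Without WT replicate 2, the log2FC of PHGDH was -0.11. The upper end of the interval of PSAT1, -0.23, lies below the lower end of that of PHGDH, and the difference between the 2 genes was not itself tested. GENCODE names pseudogenes of ATF4, ASNS, PSAT1 and PSPH, so reads shared with near-identical copies could affect these counts.

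The remaining members act on stress signalling. CHAC1 (chromosome 15, 41245160 to 41248710, plus strand) encodes a cyclotransferase that degrades glutathione and is among the most inducible targets of ATF4. It was the least abundant member, with 9.36 and 8.32 CPM in WT and 5.66 and 5.84 CPM in Helz-null cells, from 234 to 588 counts per library. Both Helz-null libraries were lower, and the log2FC of -0.63 was the most negative of the 10 genes (SE 0.11, 95% interval -0.85 to -0.40, adjusted p = 1.65e-05 from edgeR). SESN2 (chromosome 1, 28586029 to 28609002, plus strand), sestrin 2, senses leucine and restrains mTORC1 signalling. Its values were 110.1 and 111.0 CPM in WT and 94.2 and 93.8 CPM in Helz-null cells. Replicates differed by at most 0.012 on the log2 scale, and the mRNA fell by 0.23 (SE 0.035, adjusted p = 6.84e-07). TRIB3 (chromosome 20, 343479 to 378203, plus strand) encodes a pseudokinase that binds ATF4 and dampens the response. It had 34.0 and 33.6 CPM in WT and 29.0 and 30.5 CPM in Helz-null cells. Its groups were separate, but it was not called (log2FC -0.18, 95% interval -0.29 to -0.066, adjusted p = 0.0086).

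**Figure D2:**
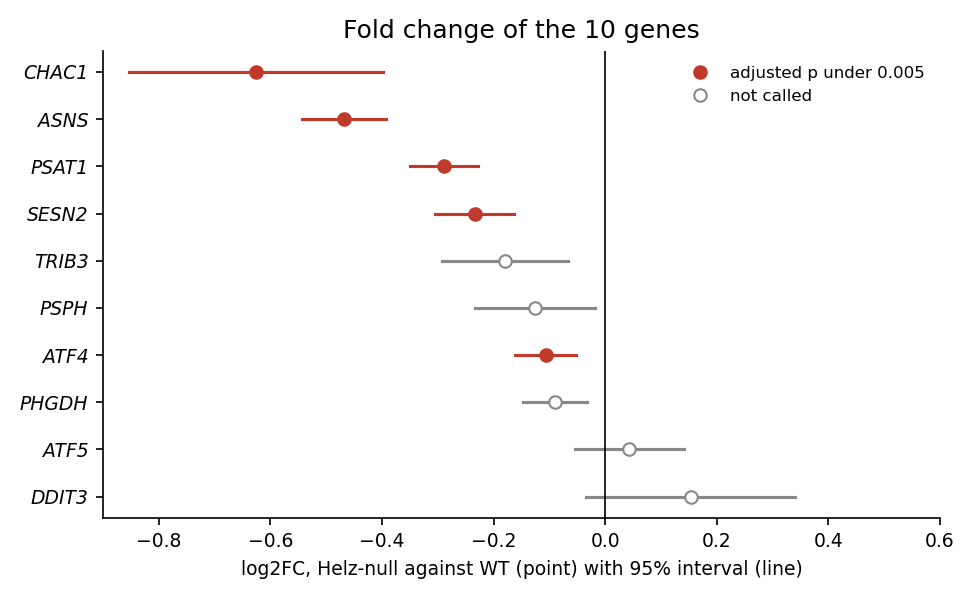
log2FC between Helz-null and WT cells (x axis) for each of the 10 genes (y axis), with the 95% interval from edgeR as a line. Filled red points mark the 5 genes with an adjusted p under 0.005, from CHAC1 at -0.63 to ATF4 at -0.11, and open grey points the 5 genes that were not called, of which ATF5 and DDIT3 have intervals that include 0.

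Levels of different genes were compared per length, as RPKM, which is the CPM divided by the deposited gene width in kilobases. In WT cells the mean levels were 377.7 RPKM for ATF4, 197.1 for PHGDH, 125.7 for PSAT1, 62.8 for ASNS and 31.3 for SESN2. The lower levels were 17.5 RPKM for PSPH, 17.1 for ATF5, 11.7 for TRIB3, 8.43 for DDIT3 and 5.67 for CHAC1. In WT cells the libraries of each gene lay above those of the next gene in this order. In Helz-null cells the order was the same but for PSPH and ATF5, with 16.0 and 17.7 RPKM. PSPH was above ATF5 in both WT libraries and below it in both Helz-null libraries. TRIB3 and DDIT3 lay closer together in Helz-null cells, at 10.3 and 9.39 RPKM, than in WT cells.

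Upstream of ATF4, the mRNA of the amino acid sensor kinase was strongly lower. The upstream list held 19 genes: the eIF2 kinases, their regulators GCN1, IMPACT and DNAJC3, the eIF2 and eIF2B subunits, the phosphatase subunits PPP1R15A and PPP1R15B, and OMA1 and DELE1, which relay mitochondrial stress. Of these, 3 fell (15.8%, against 15.5% of all tested genes) and 0 rose (against 13.9%), with a median log2FC of -0.0098, so the share that fell was that of the background. At an unadjusted p under 0.05, 5 of the 19 were lower and 2 higher, where 25.8% and 25.1% of all tested genes were. DESeq2 called 3 lower and 0 higher, against 11.7% lower and 10% higher of all tested genes. EIF2AK4, which encodes GCN2, had 89.9 and 88.2 CPM in WT and 48.1 and 50.8 CPM in Helz-null cells. Both Helz-null libraries were far below the WT libraries, and the mRNA fell to 55.6% of WT (log2FC -0.85, SE 0.042, 95% interval -0.93 to -0.76, adjusted p = 5.99e-20 from edgeR). With single libraries left out, its log2FC ranged from -0.89 to -0.81. EIF2AK2, which encodes the kinase PKR activated by double-stranded RNA, fell from 50.7 and 50.7 CPM to 38.6 and 39.1 CPM (log2FC -0.38, adjusted p = 2.11e-08). EIF2S3, a subunit of eIF2, fell by 0.14, a call that was lost without Helz-null replicate 2 (adjusted p = 0.0082). The kinase of the endoplasmic reticulum (ER), EIF2AK3 (PERK), had a log2FC of 0.21 and was not called (adjusted p = 0.0071), and the heme-regulated kinase EIF2AK1 had a log2FC of 0.014 (adjusted p = 0.73). None of the 5 eIF2B genes was called, with log2FC values between -0.023 and 0.085.

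Many of the other known targets of ATF4 fell as well. Of 46 such genes in 4 lists, 43 were tested, of which 25 fell (58.1%, against 15.5% of all tested genes) and 2 rose (4.65%, against 13.9%). Their log2FC was below 0 for 36 genes (83.7%, against 50.2% of all tested genes), and their median was -0.15. DESeq2 called 23 lower and 1 higher, against 11.7% lower and 10% higher of all tested genes. These counts describe the lists and are not a test of them.

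In amino acid and folate-linked metabolism, 8 of 10 genes fell (80%, against 15.5% of all tested genes) and 0 rose (against 13.9%), with a median log2FC of -0.23. At an unadjusted p under 0.05, 9 were lower (25.8% of all tested genes) and 0 higher, and DESeq2 called 7 lower (11.7% of all tested genes) and 0 higher. The call of the aspartate aminotransferase GOT1 (log2FC -0.15) was lost with DESeq2, with library size only, and without WT replicate 1 or either Helz-null replicate (adjusted p up to 0.066 from edgeR). The largest decrease was that of ALDH1L2, the mitochondrial formyltetrahydrofolate dehydrogenase, from 59.3 and 64.2 CPM to 42.3 and 37.1 CPM (log2FC -0.64, SE 0.052, adjusted p = 3.15e-13 from edgeR). CTH, which makes cysteine from cystathionine, had a log2FC of -0.30 and was not called without Helz-null replicate 2 (adjusted p = 0.011). PYCR1, of proline synthesis, had a log2FC of -0.28. The serine hydroxymethyltransferase SHMT2 and the folate enzymes MTHFD1L and MTHFD2, which act after the serine pathway in mitochondria, had log2FC values of -0.24, -0.24 and -0.21. Thus PSAT1 upstream of serine and 4 enzymes of mitochondrial folate metabolism were lower in the same cells. PHGDH and PSPH, which also belong to the serine pathway, were not called.

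In amino acid transport, 8 of 11 genes fell (72.7%, against 15.5% of all tested genes) and 0 rose (against 13.9%), with a median log2FC of -0.15. The counts at an unadjusted p under 0.05 and from DESeq2 were likewise 8 lower and 0 higher, where 25.8% and 11.7% of all tested genes were lower. SLC7A11, the cystine-glutamate exchanger, had 60.3 and 63.9 CPM in WT and 36.3 and 36.2 CPM in Helz-null cells (log2FC -0.77, SE 0.048, adjusted p = 1.05e-16). SLC7A5, the transporter of leucine and other large neutral amino acids, had 542.4 and 562.1 CPM in WT and 367.5 and 372.1 CPM in Helz-null cells (log2FC -0.58, SE 0.028, adjusted p = 4.64e-20). Both transporters thus lost between 33.0% and 41.5% of their mRNA. SLC3A2, the heavy chain that pairs with both, had a log2FC of -0.34. SLC6A9, a glycine transporter, had a log2FC of -0.56, SLC38A2 one of -0.28 and SLC7A1 one of -0.15, and all of these were called. With single libraries left out, these 6 calls remained. The other two calls were those of SLC1A5 (log2FC -0.14), lost without Helz-null replicate 2 (adjusted p = 0.011 from edgeR), and SLC38A1 (-0.13), lost without WT replicate 2 or Helz-null replicate 1 and with library size only.

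In tRNA charging and export, 3 of 13 genes fell (23.1%, against 15.5% of all tested genes) and 1 rose (7.69%, against 13.9%), with a median log2FC of -0.049. DESeq2 called as many, against 11.7% lower and 10% higher of all tested genes. The decreases were those of EPRS (log2FC -0.37), AARS (-0.19) and YARS (-0.15), whereas LARS rose by 0.18 (adjusted p = 5.36e-06 from edgeR). EPRS lay within the middle 50% of its 40 chromosomal neighbours, which had a median log2FC of -0.23 and of which 22 fell. LARS likewise lay within the middle 50% of its neighbours, which had a median of 0.030 and of which 13 rose. In stress and growth control, 9 of 12 genes were tested, and 6 of them fell (66.7%, against 15.5% of all tested genes) and 1 rose (11.1%, against 13.9%). Their median was -0.17, and DESeq2 called 5 lower and 0 higher, against 11.7% lower and 10% higher of all tested genes. At an unadjusted p under 0.05 from edgeR, 6 were lower and 2 higher, against 25.8% and 25.1% of all tested genes. The mitochondrial protease LONP1 had a log2FC of -0.28, VEGFA -0.27, the secreted STC2 -0.26, the mTORC1 inhibitor DDIT4 -0.21 and the translation repressor EIF4EBP1 -0.17. The autophagy receptor SQSTM1 had a log2FC of -0.12, and its call was lost with DESeq2, with library size only, and without WT replicate 1 or either Helz-null replicate (adjusted p up to 0.12 from edgeR). The calls of VEGFA and EIF4EBP1 were lost without Helz-null replicate 1 (adjusted p = 0.0090 and 0.023). The p53 target BBC3, with 8.12 and 9.93 CPM in WT and 12.7 and 10.6 CPM in Helz-null cells, was the gene that rose (log2FC 0.37), and its call was lost without WT replicate 1 or Helz-null replicate 1 and with DESeq2. Its log2FC ranged from 0.22 to 0.51 with single libraries left out. Of the untested genes, FGF21 had at most 2 counts in any library. VLDLR and GDF15, tested among genes kept by filterByExpr, had log2FC values of -0.016 (adjusted p = 0.93) and -0.12 (adjusted p = 0.75).

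Of 11 bZIP factors, Tribbles genes and related regulators, 10 were tested, 2 fell and 1 rose (median log2FC 0.067). With 20% lower and 10% higher, against 15.5% and 13.9% of all tested genes, these shares were near the background. ATF3, a stress-induced repressor, rose from 31.1 and 29.7 CPM to 40.5 and 42.8 CPM (log2FC 0.45, SE 0.054, adjusted p = 5.72e-09 from edgeR). With single libraries left out its log2FC ranged from 0.41 to 0.49. ATF3 and the other genes of this list were not among the 46 target genes counted above, so its increase is not in those counts. CEBPG, a dimer partner of ATF4, had a log2FC of -0.16 and JDP2 one of -0.40. DESeq2 called neither CEBPG nor JDP2. The call of CEBPG was lost without WT replicate 2 or either Helz-null replicate, and that of JDP2 without WT replicate 1 or Helz-null replicate 2, and both were lost with library size only. Leaving out 1 library at a time gave CEBPG a log2FC between -0.22 and -0.092 and JDP2 one between -0.49 and -0.27. Of 6 paralogs of the members, among them SESN1, SESN3 and CHAC2, 0 were called by edgeR or DESeq2, with 2 lower and 0 higher at an unadjusted p under 0.05, where 25.8% of all tested genes were lower.

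Of 18 ER chaperones and genes of the ATF6 and XBP1 arms of ER stress, 3 rose (16.7%, against 13.9% of all tested genes) and 2 fell (11.1%, against 15.5%), with a median log2FC of 0.031. These shares were near those of the background. PDIA4 rose by 0.35, CRELD2 by 0.24 and ATF6 by 0.23 on the log2 scale, whereas EDEM1 had a log2FC of -0.30 and MANF one of -0.17. HSPA5, the main chaperone of the ER, had 766.5 and 806.8 CPM in WT and 802.7 and 807.5 CPM in Helz-null cells. It was not called (log2FC 0.034, 95% interval -0.022 to 0.090, adjusted p = 0.33). All of PDIA4, EDEM1 and MANF lie among chromosomal neighbours that were shifted in the same direction, with median log2FC values of 0.22, -0.19 and -0.18. MANF lay at the median of its neighbours, PDIA4 just above their upper quartile of 0.34 and EDEM1 below their lower quartile of -0.25.

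**Figure D3:**
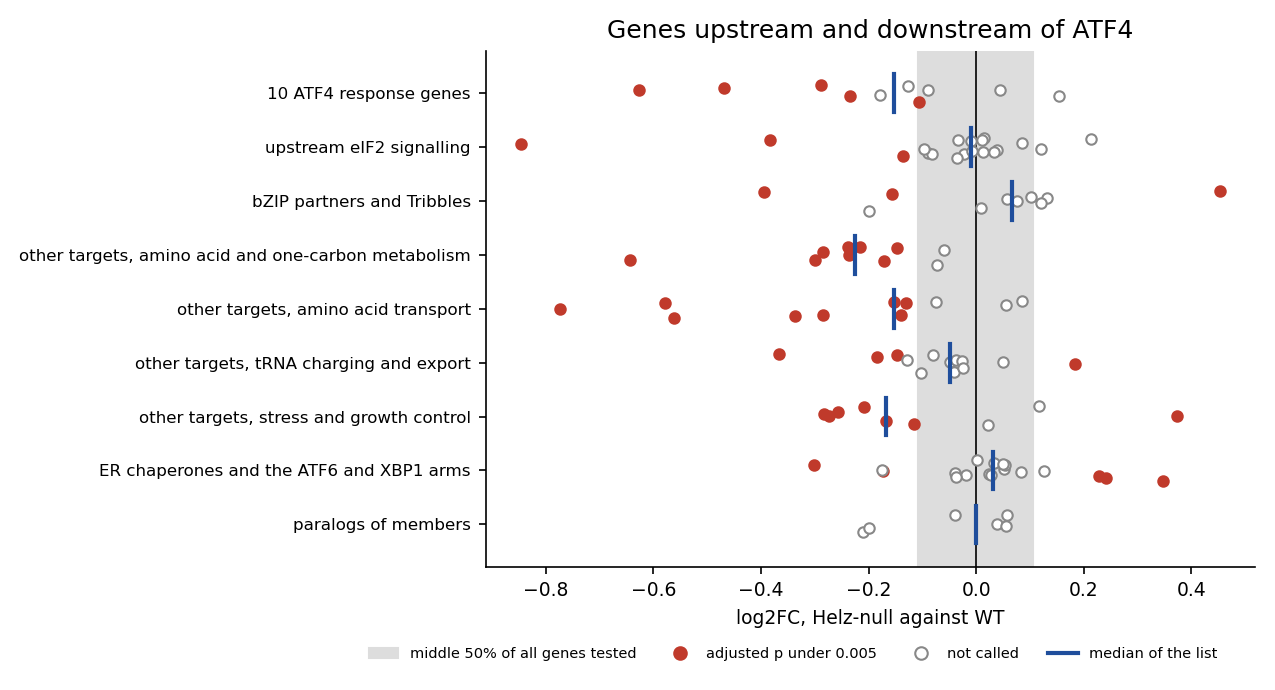
log2FC between Helz-null and WT cells (x axis) of each tested gene (points, red where the adjusted p was under 0.005) in the list of the 10 genes and in 8 lists of related genes (rows), with the median of each list as a blue line and the middle 50% of all tested genes as a grey band. The medians of amino acid and one-carbon metabolism (-0.23), amino acid transport (-0.15) and stress and growth control (-0.17) lie left of the band, and that of the ER chaperones (0.031) lies within it.

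Since expression was shifted along parts of several chromosomes in the Helz-null line, each gene was set beside up to 20 tested genes on either side of it (24 in all for TRIB3, near the end of its chromosome). For the 10 ATF4 response genes the medians of these neighbours lay between -0.076 (PSPH) and 0.070 (PHGDH). CHAC1, with a log2FC of -0.63, had neighbours with a median of -0.0038, and ASNS, with -0.47, had neighbours with a median of -0.0037. The neighbours of PSAT1 had a median of -0.073, and those of SESN2 one of 0.0025. The values of CHAC1, ASNS, PSAT1, SESN2, TRIB3 and PHGDH lay below the lower quartile of their neighbours, those of ATF4, ATF5 and PSPH lay within the middle 50%, and that of DDIT3 lay above the upper quartile. EIF2AK4 lies on chromosome 15 like CHAC1, with which it shares part of its neighbours, and their median log2FC was -0.025. SLC7A11 was the gene of the 4 with the largest decreases outside the 10 whose neighbours were most shifted, with a median of -0.13 against its own -0.77. Of the 94 tested related genes, 32 fell (34%, against 15.5% of all tested genes) and 6 rose (6.38%, against 13.9%). An alternative, chosen after the data were seen, left out the genes whose neighbours had a median log2FC of at least 0.15 in size. Under it, 29 in place of 32 of the related genes fell and 5 in place of 6 rose. The counts of the 10 genes did not change under it.

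**Figure D4:**
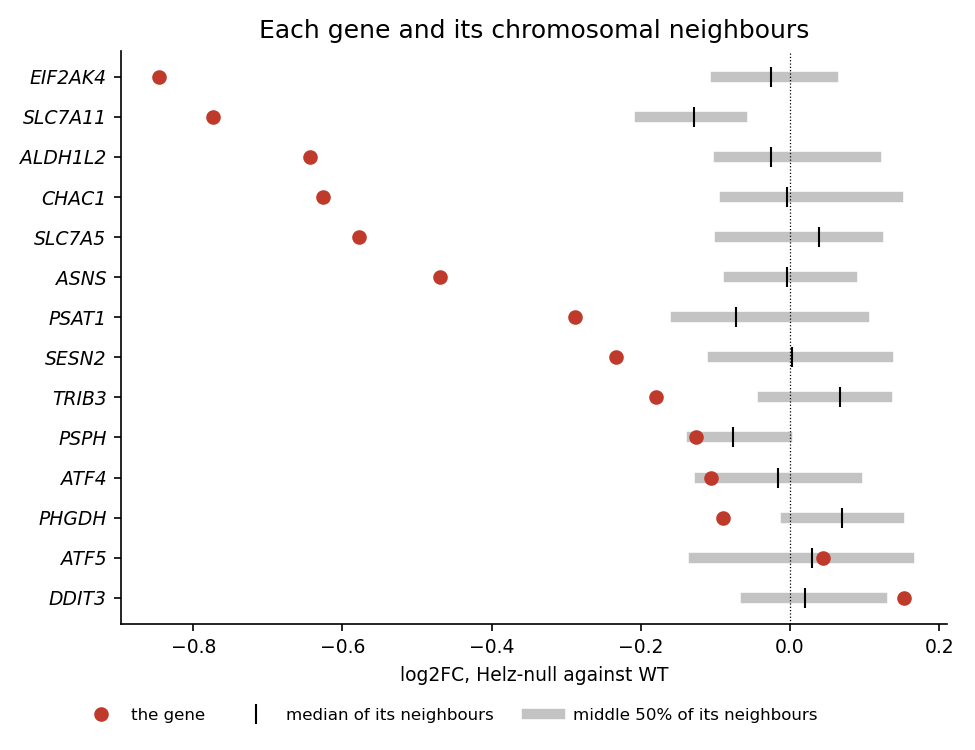
log2FC between Helz-null and WT cells (x axis) of the 10 genes and the 4 related genes with the largest decreases (red points), beside the median (black tick) and the middle 50% (grey bar) of the up to 40 nearest tested genes on the same chromosome. The points of EIF2AK4, SLC7A11, ALDH1L2, CHAC1, SLC7A5 and ASNS, between -0.85 and -0.47, lie far to the left of their grey bars.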

How the data were processed

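HEK293T RNA was sequenced in 2 WT libraries and 2 Helz-null libraries. Reads of ribosomal RNA were filtered by the authors using Bowtie2, the other read pairs were aligned to hg19 by TopHat2, and QuasR gave the raw counts per gene that were deposited, with a gene width in bases. Versions, gene annotation, use of strand and the counting of mates are not given in the sources used here. The deposited comparison table holds results of edgeR by the authors on genes selected by FPKM (a log2 fold change, a mean log2 CPM, a p-value and its FDR). None of these values were used, and only its 10978 gene names served to define the genes tested.

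The main test used edgeR 4.0.16 in R 4.3.3 (TMM, estimateDisp, glmQLFit and glmQLFTest, genotype as the only term, Benjamini-Hochberg adjustment over all genes tested, called at an adjusted p under 0.005). Standard errors were derived from the log2FC and the F statistic. DESeq2 1.42.0 was an alternative, as were other gene sets, scalings, thresholds, halved counts, a replicate block and single libraries left out. RPKM were computed from the TMM-normalized CPM and the gene width. To see whether 1 library had been deposited in duplicate, replicates were compared. The 2 WT libraries differed by more than counting noise (chi-square of 4.15 per degree of freedom), as did the 2 Helz-null libraries (3.01), so neither pair was counted as 1 sample. On halved counts these values were 2.08 and 1.51. The deposited totals exceed the mapped reads that the study states, so a fragment may have been counted more than once, and the floor and the chi-square would then understate the counting noise. A count of 3, taken as the floor, corresponds to 0.0426 to 0.0719 CPM of the library totals, which covers counting error only. The steps were tested on simulated data.

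Gene positions came from GENCODE on GRCh37, in which 10379 of the tested genes were found by symbol and 517 by a synonym, and 82 were not found. Promoter windows came from RefSeq. The 10 genes and the related lists were chosen with earlier results of these data known. Genes named were all 10, HELZ, and from each related list up to 6 called genes in order of absolute log2FC. Genes named beyond that, which were the sequences shown, the genes of the upstream list, the paralogs, HSPA5, the markers, GOT1, SQSTM1, SLC1A5 and SLC38A1 and the genes outside the comparison, were chosen after their values were seen. Figures were drawn with matplotlib 3.10.9.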

Additional observations from a re-analysis of the deposited data

How the results depend on the processing

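The number of the 10 genes called lower was 5, and with single libraries left out it ranged from 4 to 6, while the number called higher stayed at 0 under every alternative run. Of the 94 tested related genes, 32 were lower (34%, against 15.5% of all tested genes) and 6 higher (6.38%, against 13.9%). With any single library left out, fewer related genes and fewer of all tested genes were called lower. Leaving out a library leaves its group with 1 sample, which is assumed to vary like the other group. The log2FC of HELZ ranged from -1.47 to -1.41 with single libraries left out. When a fold change above 1.2 was tested, 1 of the 10 genes and 6 related genes were lower and 1 related gene was higher, and 217 of all genes were higher and 318 lower, against 1524 and 1701; this test asks for larger changes by construction. An adjusted p under 0.05 as the threshold gave 7 of the 10 genes lower, and 40 related genes lower and 12 higher, with 2506 of all genes lower and 2371 higher. With library size only, 12 related genes were higher and 4 of the 10 genes lower, and of all calls 61.5% were higher, against 47.3% with TMM; the cause was not tested. No gene of the 10 changed direction under any alternative.

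The replicate numbers are shared between the groups, but nothing in the labels says that they mark a shared batch, and the replicate differences of WT and Helz-null cells correlated with r = 0.034 over the tested genes. With a replicate block, 6 of the 10 genes were lower, TRIB3 among them (adjusted p = 0.0047), as were 34 related genes, with 7 higher, and 1677 of all genes were higher and 1841 lower. The 2 least abundant of the 10 genes, CHAC1 with 234 to 588 counts per library and DDIT3 with 403 to 767, had the widest intervals of log2FC, 0.46 and 0.37. With counts divided by 2, CHAC1 was still called (adjusted p = 1.17e-05 from edgeR) and DDIT3 was still not (adjusted p = 0.18).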
